A study of Mus musculus with 8 samples.

Results

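The perineuronal net genes examined here are 10 genes chosen by symbol, with earlier results of these data known: the lecticans Acan, Bcan, Ncan and Vcan, the link proteins Hapln1 and Hapln4, the tenascin Tnr, the hyaluronan synthases Has2 and Has3, and the receptor phosphatase Ptprz1. They are 10 of the 55450 annotated genes of the count tables, and each symbol matched 1 gene. The material was nuclear RNA from GABAergic neurons, the inhibitory neurons, of the cerebral cortex of juvenile mice. In all animals a Cre driver for GABAergic neurons switched on a loxP-controlled fluorescent nuclear protein, by which the nuclei were sorted. Control mice were Thra+/+, and mutant mice were Thra+/AMI, with an allele that the same Cre switches on and that encodes a dominant-negative form of a thyroid hormone receptor. The driver was not named further in the sources used here, and each library came from 1 cortex. The comparison addresses the role of thyroid hormone in how parvalbumin neurons of the neocortex mature after birth.

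The series lists 4 control and 4 mutant samples, but the table of mutant 10 held the same counts as that of mutant 7 in all 21975 genes compared that had a count. These 2 tables, identical in the genes compared, count as 1 sample here, and all comparisons are of controls 1 to 4 with mutants 6, 7 and 8. Total counts ran from 11797788 to 13804734 in controls and from 10747169 to 12941251 in mutants. Levels are given as CPM, reads scaled to library size with edgeR's TMM factors, and 1 CPM stands for 10.75 to 13.8 reads before that scaling. Thra itself had a mean of 114 CPM in the 4 controls (SD 9.35) and of 87.5 CPM in the 3 mutants (SD 9.39), and its counts add up both alleles. Controls 1 and 4 stood at opposite ends of a trend with gene length. In genes over 100 kb the median log2 ratio to the other controls was -0.47 for control 1 and 0.50 for control 4.

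A perineuronal net is a lattice of extracellular matrix around the cell body and proximal dendrites of certain neurons, in the cortex mostly the fast-spiking parvalbumin cells. Hyaluronan, a long sugar polymer made at the cell surface by hyaluronan synthases, forms its backbone. Lecticans are chondroitin sulfate proteoglycans that bind hyaluronan at their amino-terminal end, link proteins clamp that bond, and tenascin-R joins the other ends of lecticans to each other. PTPRZ1 is a receptor-type tyrosine phosphatase that itself carries chondroitin sulfate, and its secreted form, phosphacan, is part of the same matrix. The nets form during postnatal life, as parvalbumin cells mature.

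The members moved in different directions in nuclei with the mutant receptor. Bcan and Hapln4 fell, by 3.26-fold and 6.98-fold, and Ptprz1 rose 3.03-fold. The other 7 members, among them Acan, the lectican most used as a mark of nets, did not pass the test. Of 16448 tested genes, 9.42% were called (edgeR's quasi-likelihood test, Benjamini-Hochberg adjusted p under 0.05), 4.78% lower and 4.63% higher. All 10 members were tested, with 2 lower, 1 higher and a median log2 fold change of -0.04, beside -0.01 over all tested genes. Because of how the members were chosen, their count is a description. The groups did not overlap in 4 members (Bcan, Hapln4, Ptprz1 and Vcan), beside 22.0% of all tested genes. Leaving out control 1, 2, 3 or 4 gave 12.5%, 6.44%, 6.25% or 14.5% of genes called, and leaving out mutant 6, 7 or 8 gave 4.55%, 4.35% or 4.86%. Bcan, Hapln4 and Ptprz1 were called in each of these 7 fits. Members called numbered 5 without control 4.

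The same 3 members were also called in the 8 other fits tried. The share of all genes called was 12.1% with DESeq2, 9.41% with upper-quartile scaling, 16.7% without controls 1 and 4 and 8.53% without control 4 and mutant 8. With limma-voom (19.1%), no filter on low counts (6.28%), 1 surrogate variable (22.6%) and an offset for gene length (16.7%), 5 members were called, and Vcan (higher) and Hapln1 (lower) were the added ones. Hapln1 was also called with DESeq2 and without controls 1 and 4. With an absolute log2 fold change over 1 also required, 3.90% of all genes were called, and so were the same 3 members.

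Promoter sequence is shown for the called members that have an entry in the RefSeq promoter table (GRCm38.p6), because one fell and the other rose. Each stretch is the 250 bases before the RefSeq start, 5′ to 3′ on the gene's strand, with CG dinucleotides in capitals. The Bcan stretch is chr3:88000357-88000606, minus strand, and its RefSeq start lies 126 bases upstream of the GENCODE gene start. The Ptprz1 stretch is chr6:22875252-22875501, plus strand, and both annotations share that start.
Bcan: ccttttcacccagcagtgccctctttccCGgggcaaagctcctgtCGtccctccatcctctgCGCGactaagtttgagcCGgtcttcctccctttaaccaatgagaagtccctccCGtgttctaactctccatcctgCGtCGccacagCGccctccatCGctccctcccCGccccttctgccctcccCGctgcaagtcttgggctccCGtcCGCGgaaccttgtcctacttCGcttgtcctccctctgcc
Ptprz1: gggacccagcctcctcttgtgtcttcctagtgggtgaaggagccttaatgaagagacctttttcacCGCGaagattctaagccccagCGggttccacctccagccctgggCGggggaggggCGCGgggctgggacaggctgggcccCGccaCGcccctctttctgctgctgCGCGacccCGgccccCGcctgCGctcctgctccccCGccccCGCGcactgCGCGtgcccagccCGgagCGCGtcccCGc
The Bcan stretch holds 16 CG dinucleotides and 62.0% G+C, and the Ptprz1 stretch 22 and 71.6%. The medians over 32851 promoters of the table were 6 and 52.4%, so both stretches are richer in CG than most. Entries were found for 7 of the 10 members, and none for Hapln4, Has2 or Has3. The motif AGGTCA, the core of many nuclear receptor sites, was searched on both strands. It was in 0 of these 7 stretches and in 14.0% of all promoters of that length. A match or its absence describes only these letters in this window.

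**Figure D1:**
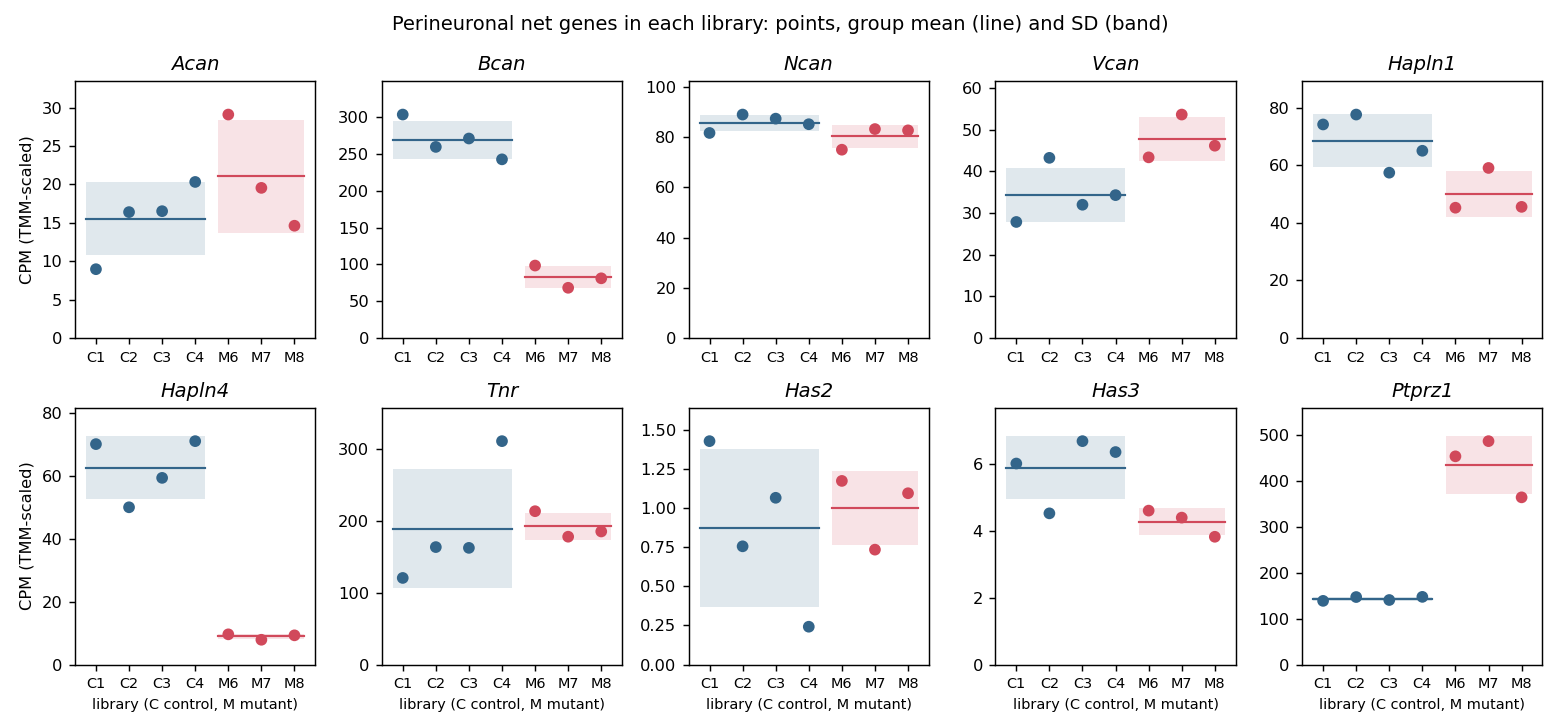
Each panel gives 1 gene, with TMM-scaled CPM on a linear axis from 0 and the 7 libraries along the other axis (blue controls, red mutants). Lines are group means and bands the SD. Bcan and Hapln4 lie lower in every mutant than in any control, and Ptprz1 lies higher in every mutant, at 364 CPM or more.

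Brevican (Bcan, ENSMUSG00000004892.13, GRCm38 chromosome 3, 87987531 to 88000230, minus strand) is the shortest core protein of the lecticans and a major one of the adult brain. Its levels were 304, 259.6, 271 and 243 CPM in controls 1 to 4, and 98.4, 68.2 and 81.1 CPM in mutants 6, 7 and 8. The highest mutant lay below the lowest control. The means were 269 ± 25.7 CPM for controls (SD, n = 4) and 82.6 ± 15.2 CPM for mutants (SD, n = 3), from at least 743 reads per library. Bcan fell by 1.70 on the log2 scale (SE 0.15, edgeR adjusted p 3.17e-05), and by 1.58 to 1.85 in the fits without 1 library.

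Neurocan (Ncan, chromosome 8, 70093085 to 70120873, minus strand), a lectican best known from the developing brain, differed little between the groups. It was at 81.6, 88.9, 87.3 and 85.1 CPM in the controls and at 74.9, 83.2 and 82.7 CPM in the mutants. The groups overlapped, and both were narrow, with coefficients of variation of 3.70% and 5.74%. Its log2 fold change was -0.10 (SE 0.10), with a 95% interval, not adjusted for the number of genes, from -0.31 to 0.12 (edgeR adjusted p 0.639). A change of the size seen in Bcan lies outside that interval.

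Versican (Vcan, chromosome 13, 89655312 to 89742509, minus strand) is the largest lectican and is made by many tissues. It was at 27.8, 43.2, 32.0 and 34.3 CPM in the controls and at 43.3, 53.6 and 46.1 CPM in the mutants. All mutants lay above all controls, but only just, with control 2 at 43.2 and mutant 6 at 43.3 CPM. Over all genes the log2 fold change of 0.47 (SE 0.15) did not pass (edgeR adjusted p 0.0755). It passed without control 2 (0.60, adjusted p 0.0335) and without control 4 (0.47, adjusted p 0.0469).

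Aggrecan (Acan, chromosome 7, 79053483 to 79115099, plus strand) is the lectican that net antibodies and plant lectin stains mostly rely on. It was at 8.96, 16.4, 16.5 and 20.3 CPM in controls 1 to 4 and at 29.1, 19.6 and 14.6 CPM in mutants 6, 7 and 8. The groups overlapped, and the spread was wide, with coefficients of variation of 30.6% in controls and 34.9% in mutants. Aggrecan's log2 fold change of 0.44 (SE 0.27) had a 95% interval from -0.15 to 1.03 (edgeR adjusted p 0.382). The interval holds 0, and a fall as large as that of Bcan lies outside it. The value ran from 0.13 without mutant 6 to 0.66 without mutant 8, and was 0.80 without control 4 and mutant 8, never with a call.

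To read the lecticans against each other, each was also expressed as a share of their summed level per kilobase of exon. Bcan made up 83.8%, 78.4%, 80.1% and 77.9% of the lectican level in controls 1 to 4. In mutants 6, 7 and 8 its share was 58.3%, 48.4% and 54.5%. The share of Ncan was 14.5% ± 1.22 (SD, n = 4) in controls and 29.9% ± 4.32 (SD, n = 3) in mutants, that of Vcan 2.89% ± 0.643 and 8.88% ± 1.74, and that of Acan 2.56% ± 0.91 and 7.43% ± 2.02. None of these 4 shares overlapped between the groups. The shares of a family add up to the whole, so the gain of the others is tied to the loss of Bcan. The summed lectican level was 82.6 ± 5.18 CPM per kb in controls and 37.6 ± 3.54 CPM per kb in mutants.

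Hapln4, also called Bral2 (ENSMUSG00000007594.10, chromosome 8, 70083457 to 70090862, plus strand), is a brain-specific link protein that is known to bind with brevican around inhibitory synapses. It was at 70.1, 50.03, 59.4 and 71.1 CPM in controls 1 to 4 and at 9.62, 7.89 and 9.31 CPM in mutants 6, 7 and 8. The lowest control, control 2, lay far above the highest mutant, mutant 6. Controls had 662 to 884 reads of the gene, and mutants had 86 to 123. Hapln4 fell by 2.80 on the log2 scale (SE 0.16, edgeR adjusted p 1.87e-06), more than any other member moved, and by 2.72 to 2.90 without 1 library.

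Hapln1, the link protein first known from cartilage (chromosome 13, 89539796 to 89611652, plus strand), was at 74.2, 77.7, 57.5 and 65.1 CPM in the controls and at 45.3, 59.1 and 45.6 CPM in the mutants. Mutant 7 lay above control 3, so the groups overlapped. Hapln1 had a log2 fold change of -0.46 (SE 0.14), which did not pass (edgeR adjusted p 0.0628). It passed without control 4 (-0.48, adjusted p 0.0248), and the adjusted p was up to 0.25 without mutant 8.

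The remaining link proteins are not members but complete the family. Hapln2, known from nodes of Ranvier, was at 2.90 ± 0.932 CPM in controls and 3.39 ± 0.384 in mutants. Hapln3 was at 4.24 ± 0.695 and 6.70 ± 0.868 CPM, without overlap, and did not pass the test (log2 fold change 0.66, edgeR adjusted p 0.0856). It was called in 5 of the 8 other fits, at adjusted p of 0.0105 (limma-voom) to 0.0492 (DESeq2), and in none of the 7 without 1 library. Hapln4 held 53.2%, 45.4%, 55.8% and 57.9% of the link protein level per exon kilobase in controls, and 18.1%, 13.4% and 17.4% in mutants. Hapln1 held 35.2% to 46.8% in controls and 56.5% to 66.6% in mutants. The leading link protein was thus Hapln4 in controls 1, 3 and 4 and Hapln1 in control 2 and in all 3 mutants. Summed over the family the level was 30.02 ± 2.96 CPM per kb in controls and 14.1 ± 0.816 in mutants.

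In the exact permutation test over libraries, which has 35 arrangements, each of the 4 lectican shares and the shares of Hapln1 and Hapln4 had p = 0.0571, the smallest that the two-sided form used here, 2 times the one-sided p, can give. Adjusted over the 8 shares tested it was 0.0762. The shares of a family are tied to each other, so these p-values are not separate results, and none could pass 0.05.

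**Figure D2:**
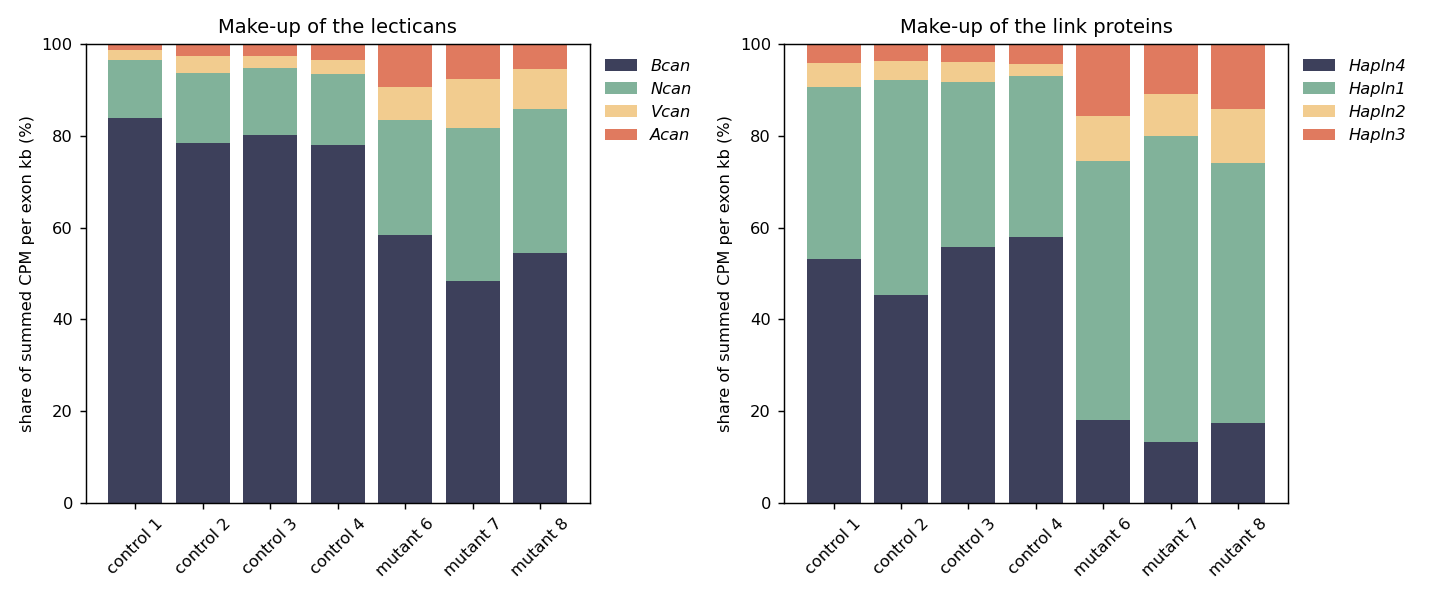
Stacked bars give the share of each gene in the summed CPM per exon kilobase of its family, in percent, for each of the 7 libraries. Bcan takes 77.9% or more of the lectican bar in controls and at most 58.3% in mutants, and Hapln4 shrinks from at least 45.4% to at most 18.1% of the link protein bar.

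Each lectican gene has a link protein gene as its neighbour in the genome, with no annotated gene between them, and the changes were set side by side by pair. Ncan and Hapln4 lie 2.2 kb apart on chromosome 8, and their log2 fold changes were -0.10 and -2.80. Bcan and Hapln2 lie 21.5 kb apart on chromosome 3, with -1.70 and 0.23. In both pairs 1 gene was called and its neighbour was not. Vcan and Hapln1, 43.7 kb apart on chromosome 13, had 0.47 and -0.46, and Acan and Hapln3, 2 bases apart on chromosome 7, had 0.44 and 0.66, none of them called. Acan and Hapln3 run towards each other, as do Ncan and Hapln4, and Vcan and Hapln1. Because the strand setting of the counting is not known, reads past the end of 1 gene of such a pair could be counted for the other. Whether this occurred was not tested.

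Tenascin-R (Tnr, chromosome 1, 159523769 to 159931729, plus strand) cross-links the lecticans. It was at 120, 163, 162 and 311 CPM in controls 1 to 4 and at 213, 178 and 185 CPM in mutants 6, 7 and 8. Control 4 was the highest library and control 1 the lowest, and all mutants lay between them. Tnr had a log2 fold change of 0.02 (SE 0.25), with a 95% interval from -0.52 to 0.57 (edgeR adjusted p 0.976). At 408 kb Tnr is the longest member, and its order of controls followed the trend with gene length. With that trend taken out of each library, the controls were at 169, 160.0, 174 and 221 CPM and the mutants at 199.7, 179 and 188 CPM. Without control 4 the log2 fold change was 0.37 (adjusted p 0.0674). Its sign turned without control 1 (-0.14), control 2 (-0.044), control 3 (-0.039) or mutant 6 (-0.061), and Tnr was called in none of these fits.

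Ptprz1 (ENSMUSG00000068748.7, chromosome 6, 22875502 to 23052916, plus strand) was the member that rose. It was at 139, 147, 141 and 147 CPM in controls 1 to 4 and at 453, 486 and 364 CPM in mutants 6, 7 and 8. The controls were close together, with a coefficient of variation of 3.10%, and the lowest mutant lay far above the highest control. Ptprz1 rose by 1.60 on the log2 scale (SE 0.13, edgeR adjusted p 1.82e-05), and by 1.52 to 1.72 without 1 library. From 1749 to 5795 reads stood behind these values. Counts per gene do not separate the receptor form from the secreted phosphacan.

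Of the hyaluronan synthases, the members Has2 and Has3 were at low levels. Has3 (chromosome 8, 106870242 to 106884566, plus strand) was at 6.03, 4.53, 6.70 and 6.37 CPM in the controls and at 4.62, 4.41 and 3.83 CPM in the mutants. Control 2 lay within the mutant range, and the log2 fold change of -0.46 (SE 0.22) did not pass (edgeR adjusted p 0.249). Has2 (chromosome 15, 56665627 to 56694539, minus strand) rested on 3 to 18 reads per library, at 0.873 ± 0.502 CPM in controls and 1.00 ± 0.234 CPM in mutants. No difference in Has2 was detectable at this depth (log2 fold change 0.20, 95% interval from -0.89 to 1.30, edgeR adjusted p 0.872). Has1, the third synthase and no member, was at 28.0 ± 7.99 CPM in controls and 19.5 ± 1.11 in mutants (log2 fold change -0.52, edgeR adjusted p 0.147), and passed without control 1 (-0.68, adjusted p 0.00809), without controls 1 and 4 (-0.53, 0.00782), with limma-voom (-0.52, 0.0147) and with 1 surrogate variable (-0.53, 0.00196).

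Within this family Has1 held most of the level per exon kilobase, 83.7% ± 5.68 in controls (SD, n = 4) and 82.6% ± 1.16 in mutants (SD, n = 3). Has3 held 13.1% ± 3.40 and 12.9% ± 1.47, and Has2 3.20% ± 2.38 and 4.50% ± 0.834. All 3 shares overlapped between the groups. The exact permutation p (two-sided) was 0.457 for Has2 and 0.971 for Has3, or 0.522 and 0.971 adjusted over the 8 shares. Without Has1 in the sum, the share of Has3 was 8.17 percentage points lower in mutants and that of Has2 8.17 points higher (exact permutation p 0.171 for each).

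**Figure D3:**
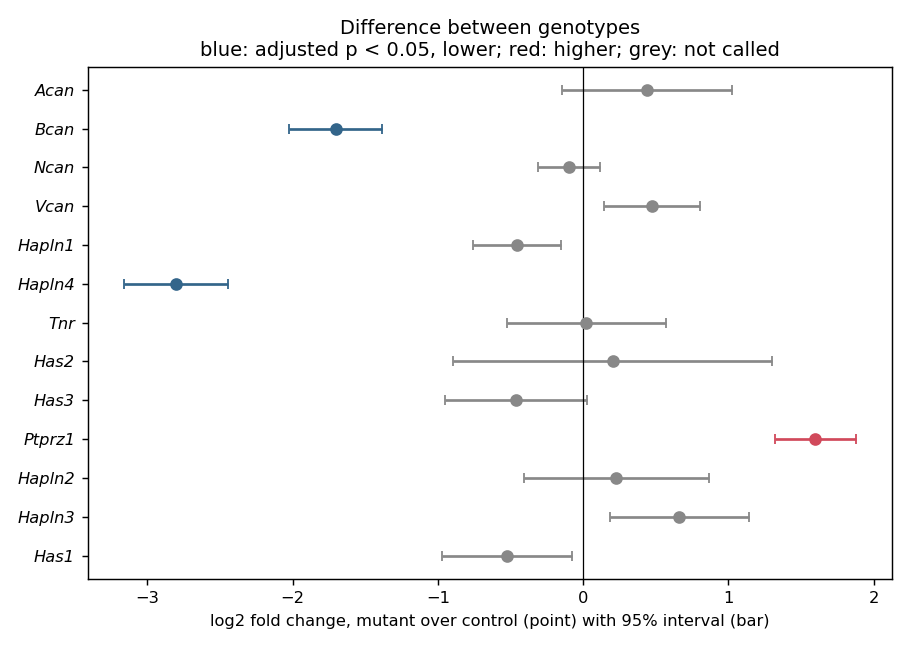
Points are log2 fold changes of mutant over control for the 10 members and for Hapln2, Hapln3 and Has1, with 95% intervals that are not adjusted for the number of genes. Bcan at -1.70 and Hapln4 at -2.80 are coloured as lower, Ptprz1 at 1.60 as higher, and the others as not called.

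Ordered by level per exon kilobase, the controls had Bcan at the top (66.2 ± 6.32 CPM per kb), clear of the rest. Hapln4 (16.0 ± 2.53), Tnr (14.7 ± 6.48), Ncan (11.9 ± 0.441), Hapln1 (11.6 ± 1.55) and Ptprz1 (10.1 ± 0.312) followed, each overlapping the next in range. Vcan (2.37 ± 0.45) and Acan (2.08 ± 0.637) overlapped each other, above Has3 (0.926 ± 0.15) and Has2 (0.206 ± 0.119). In mutants Ptprz1 led (30.5 ± 4.44 CPM per kb), above Bcan (20.3 ± 3.73), Tnr (14.9 ± 1.46), Ncan (11.2 ± 0.64) and Hapln1 (8.47 ± 1.34), without overlap between neighbours. Vcan (3.30 ± 0.367), Acan (2.82 ± 0.986) and Hapln4 (2.28 ± 0.234) came next, with Vcan overlapping Acan and Acan overlapping Hapln4. Hapln4 thus went from the second to the eighth place among the 10 genes.

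Nets are found mostly on parvalbumin cells, so markers of the cell types were read in the same libraries. Gad1, which makes GABA and marks the labelled class, was at 520.1 to 660.2 CPM in controls and 586 to 664 CPM in mutants. Of 7 parvalbumin neuron markers 4 fell, Pvalb (-4.48), Syt2 (-2.18), Akr1c18 (-1.82) and Kcnc1 (-1.40). Tac1 (-0.004) and Pthlh (-0.28) were not called. The summed level of all 7 was 819.7 to 1014 CPM in controls and 466 to 509 CPM in mutants. Kcnc1 weighed most in that sum, at 457 to 648 CPM in controls and 176 to 230 CPM in mutants. Lhx6, a transcription factor of this lineage that other interneurons share, had a log2 fold change of 0.23 and was not called. Of 6 markers of other interneuron classes 1 rose and 1 fell, and their sum was 1412 to 1560.0 CPM in controls and 1632 to 1990.3 CPM in mutants. Reln weighed most in that sum, at 534 to 752 CPM in controls and 756 to 1003 CPM in mutants. It was not called (0.43, edgeR adjusted p 0.162), nor were Lamp5 (-0.53), Vip (-0.27) and Calb2 (0.20). Sst, the neuropeptide somatostatin, was at 219 to 331 CPM in controls and rose to 429.7 to 566 CPM (0.84, edgeR adjusted p 0.00682). Npy, neuropeptide Y, was at 229 to 313 CPM in controls and fell to 159 to 184 CPM (-0.64, edgeR adjusted p 0.00932). Of the 7 fits without 1 library, Sst was called in 6 (edgeR adjusted p up to 0.0551) and Npy in 5 (up to 0.0688). Both were called in the 8 other fits. In these bulk samples fewer cells of a type and less RNA per cell cannot be told apart, for the members as for the markers. The part of these markers in the results on Bcan, Hapln4 and Ptprz1 was not tested.

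Glial cells also make lecticans and Ptprz1. Of 7 tested astrocyte markers 0 were called by edgeR, with 6 lower and 1 higher in sign and a median log2 fold change of -0.33. Their summed level was 152 to 276 CPM in controls and 159 to 189.6 CPM in mutants, with Gfap listed at 0 in every library. Slc1a2 weighed most in that sum, at 103 to 199 CPM in controls and 105 to 128 CPM in mutants. Of 5 tested markers of oligodendrocyte precursors 0 were called, with all 5 higher in sign and a median log2 fold change of 0.13. Their sums were 14.8 to 20.1 CPM in controls and 16.9 to 21.2 CPM in mutants, with Gpr17 and C1ql1 listed at 0. Pdgfra, which defines the precursors, was at 2.59 to 4.84 CPM in controls and 4.13 to 4.54 CPM in mutants. Of 6 oligodendrocyte markers Mog was called higher (0.93), with sums of 149 to 188 and 165 to 198 CPM. Mbp weighed most in these sums, at 85.2 to 112 CPM in controls and 91.8 to 105 CPM in mutants. The part of these cells in the results on Bcan and Ptprz1 was not tested.

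The rest of the matrix was read through 4 lists of 61 symbols in all, of which 1 was not in the annotation and 49 were tested. Of these, 7 rose and 1 fell, with a median log2 fold change of 0.03. Called genes were thus 8 of 49, beside the 9.42% of all tested genes. The 8 became 13 without control 1, and 5 without mutant 6 or without mutant 8. The lists were chosen with earlier results of these data known.

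Among 10 tested genes that bind, clamp, make or break down hyaluronan, 2 rose and 1 fell. Cemip, a secreted protein that starts the breakdown of hyaluronan, fell from 559.6 ± 46.6 to 279.9 ± 64.7 CPM (95% interval of the log2 fold change -1.37 to -0.63, edgeR adjusted p 0.00281). Its groups did not overlap, at 509 CPM or more in controls and 353 CPM or less in mutants. Cd44, the cell surface receptor for hyaluronan, rose from 5.10 ± 0.865 to 9.15 ± 0.888 CPM (0.84, adjusted p 0.0215). Tnfaip6, which transfers protein chains onto hyaluronan, rose from 1.35 ± 0.306 to 3.17 ± 0.309 CPM (1.23, adjusted p 0.023), from as few as 12 reads. The calls of Cd44 and Tnfaip6 did not hold in the 5 fits that left out control 2, control 3, mutant 6, mutant 7 or mutant 8 (edgeR adjusted p 0.0532 to 0.103 for Cd44 and 0.0549 to 0.0949 for Tnfaip6), and Cd44 was also not called without control 4 and mutant 8 (0.70, adjusted p 0.106).

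Among 13 tested tenascins and partners of the net, 3 rose and 0 fell. Sema3a, a chemorepellent that binds the chondroitin sulfate of nets, was at 49.4 ± 13.2 CPM in controls and rose to 104 ± 5.77 CPM (1.08, SE 0.18, edgeR adjusted p 0.00262). Lgals1, a galactose-binding lectin, rose from 11.99 ± 1.98 to 26.3 ± 4.75 CPM (1.13, adjusted p 0.00182). Receptor phosphatases of the family that binds chondroitin sulfate differed among themselves. Ptprf rose from 86.6 ± 9.16 to 150.3 ± 4.36 CPM (0.79, adjusted p 0.000789), whereas Ptprs was not called (0.03, SE 0.15, adjusted p 0.948). Of the ligands and binding partners of PTPRZ1, Ptn (0.26), Mdk (-0.18), Cntn1 (0.20) and Tnc (-0.74) were not called.

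Of 10 tested proteases and inhibitors that act on lecticans 0 were called by edgeR, with a median log2 fold change of -0.02. Adamts15 came nearest, at 62.5 ± 2.66 CPM in controls and 48.1 ± 6.12 CPM in mutants without overlap (-0.38, adjusted p 0.0622). Adamts4, a known brevican-cleaving protease, was at 0.20 (adjusted p 0.788). Of 16 tested enzymes of chondroitin sulfate chains 2 rose and 0 fell. Csgalnact1, which starts the chain, rose from 27.5 ± 11.4 to 59.8 ± 8.58 CPM (1.12, SE 0.24, adjusted p 0.0115), and Dsel, an epimerase relative, from 12.9 ± 2.66 to 26.8 ± 4.14 CPM (1.05, SE 0.18, adjusted p 0.00294). Csgalnact1 lost its call without mutant 6 (1.08, adjusted p 0.0623) or mutant 8 (1.05, adjusted p 0.0632). With no filter on low counts it was not called either (1.13, adjusted p 0.0895). It is a long gene of 378 kb, and control 4 was its highest control, at 43.96 CPM, beside 50.1 CPM in the lowest mutant.

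**Figure D4:**
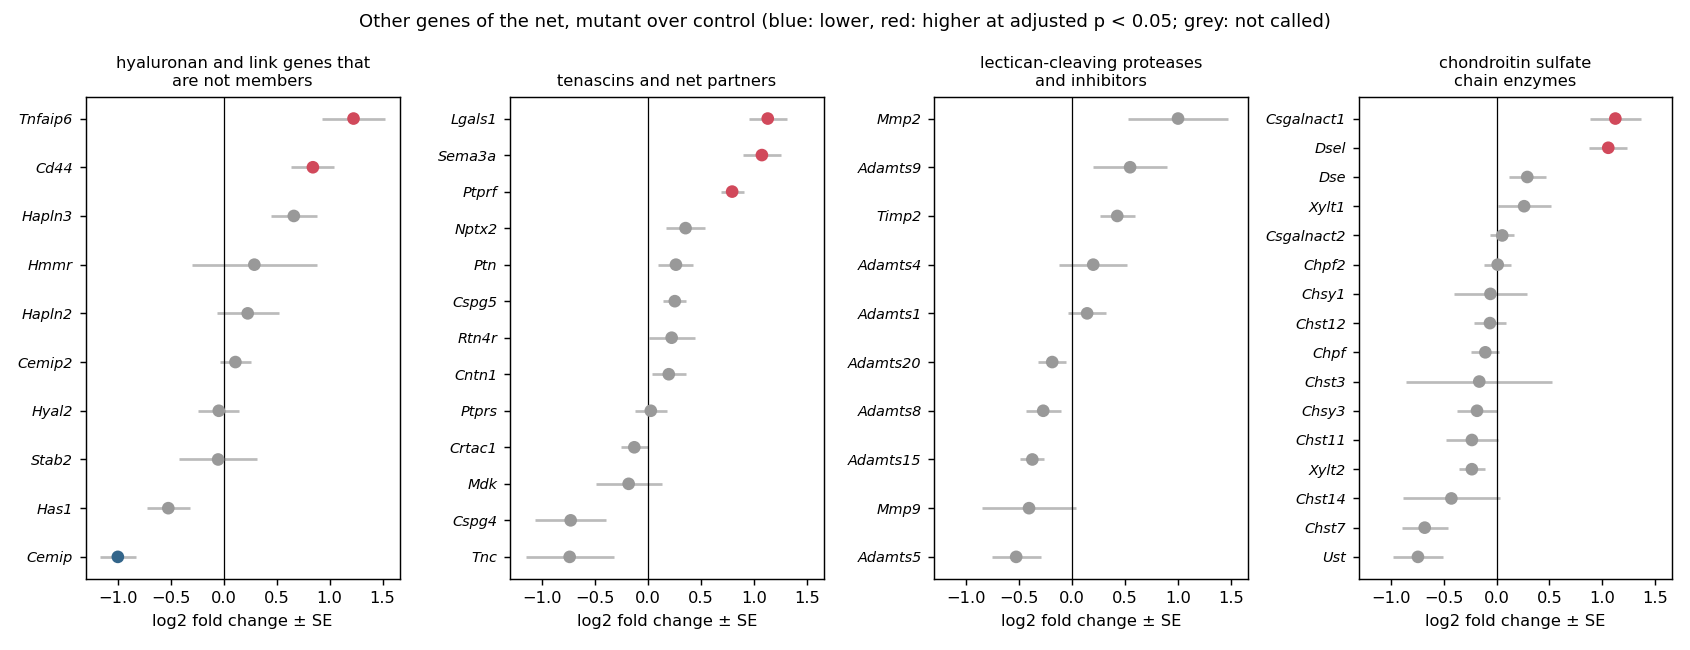
Each panel shows 1 list of other matrix genes, with log2 fold changes of mutant over control as points and the SE as bars. Called genes are Tnfaip6, Cd44 and Cemip on the left, Lgals1, Sema3a and Ptprf in the next panel, none among proteases and inhibitors, and Csgalnact1 and Dsel on the right.

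The genes whose pattern over the 7 libraries was most like each called member were found by the root mean square difference of centred log2 CPM, with genes kept where the mean reached 5 CPM. Nearest to Bcan were Tnfrsf12a (difference 0.0655), Gabrd (0.0968) and Cenpa (0.139). Gabrd, the delta subunit of the GABA-A receptor, went from 261 ± 33.2 to 74.8 ± 6.82 CPM. Nearest to Hapln4 were Sphk1 (0.195), Frmpd1 (0.257) and 4632428C04Rik (0.267), and nearest to Ptprz1 were Wnt7a (0.150), Zfp57 (0.175) and 4930426D05Rik (0.183). Tnfrsf12a (mean 15.7 CPM in controls, 4.66 in mutants), Sphk1 (8.64 and 1.42) and 4632428C04Rik (9.44 and 1.08) reached 5 CPM only through the controls. Of the exon bases of 4930426D05Rik, 20.3% lie in exons of other genes. Neither Bcan nor Hapln4 was among the 3 genes nearest to the other. Centred profiles keep the size of the fold change, which differed between these 2 genes (-1.70 and -2.80 on the log2 scale). That alone sets them apart in this measure, so nothing further is drawn from it.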

How the data were processed

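The deposited tables hold counts of reads per gene, raw whole numbers with no normalization by the authors, as the values show. Per the submitters' processing notes, Bowtie2 2.5.3 and the build mm10 (GRCm38) were used. The counting program, its strand setting and annotation are not given in the sources used here. Per the labels' protocols, SMART-Seq v4 cDNA of sorted nuclei was made into Nextera XT libraries. No molecular identifiers are mentioned, so reads are not independent molecules. All 55450 identifiers were found in GENCODE M21, which gave symbols, coordinates and exon lengths.

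Counts were tested in R 4.3.3 with edgeR 4.0.16: filterByExpr (minimum count 10, minimum total 15), TMM, a robust quasi-likelihood fit with genotype as the only term, and Benjamini-Hochberg adjustment over 16448 genes. The fit was tested on simulated data. Levels between genes use CPM per kilobase of merged exons, and family shares an exact permutation test. Alternatives used DESeq2 1.42.0, limma 3.58.1 and sva 3.50.0, other filters and scaling, an offset from gene length, and fewer libraries.

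Named genes are the members, the other genes of their families, every called gene of 4 lists, called or defining cell type markers, and for each called member the 3 genes most like it. Genes named outside this rule (Ptprs, Adamts4, Adamts15, the PTPRZ1 partners, Tnn, Tnxb) were chosen after their values were seen. Members and lists were chosen with earlier results of these data known. No value from mutant 10 was used beside the check for identity.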

Additional observations from a re-analysis of the deposited data

How the results depend on the processing

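Members called numbered 3 in the test used and 5 with limma-voom and sample quality weights, with no filter on low counts, with 1 surrogate variable and with the gene length offset, where Vcan (higher) and Hapln1 (lower) were added, and 3 to 5 in the fits that left out 1 library. All genes called numbered 1549, and 3147 with limma-voom, 3725 with the surrogate variable, 2753 with the length offset, 2778 without controls 1 and 4, 641 with an absolute log2 fold change over 1, and 734 to 2347 without 1 library. Context list genes called numbered 8, and 19, 17 and 20 with limma-voom, the surrogate variable and without controls 1 and 4, and 5 to 13 without 1 library. The cause of these shifts was not tested. Bcan, Hapln4 and Ptprz1 kept direction and call in all 15 alternatives. Log2 fold changes that changed sign belonged to genes that were not called: Tnr (-0.14 to 0.37 without 1 library), Has2 (-0.17 without control 4 and mutant 8, -0.10 to 0.54 without 1 library) and Hapln2 (-0.032 without control 4 and mutant 8). The Has3 share differed by -0.17 percentage points, by 1.01 without controls 1 and 4, by -8.17 with only members in the family, and by -1.01 to 1.41 without 1 library. The other 7 shares kept their direction in every alternative run, but sizes moved: Hapln1 from 21.0 to 36.2 points and Has2 from 1.30 to 8.17 with only members in the family, Vcan from 5.98 to 12.2 in raw reads, and Has2 to 0.264 without control 4 and mutant 8 and 0.441 to 2.36 without 1 library. Control 4 and mutant 8 were left out together because they held 4 and 3 reads of 4 Y-linked genes, against 5094 to 6644 in the other libraries. No paired analysis was made because the labels name no pairs of controls and mutants. With 3 to 18 reads, Has2 is limited by depth.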

Other observations

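Tnn and Tnxb, tenascin genes of the context lists, did not pass the filter on low counts and were not tested, and they are named because their groups did not overlap. Groups also did not overlap in 14 of the 49 tested genes of these lists and in 22.0% of all tested genes. Tnn had 0 to 6 reads in controls and 8 to 34 in mutants, and Tnxb 6 to 21 and 3 to 5, so nothing is drawn from them. Tnn, a tenascin better known from bone, was at 0 to 0.476 CPM in controls and 0.734 to 2.66 CPM in mutants. Tnxb was at 0.457 to 1.59 CPM in controls and 0.235 to 0.391 CPM in mutants. Hyal1, Hyal3, Otx2, Timp1, Timp3, Timp4, Chst13 and Chst15 were listed at 0 in every library, as were Dlx1 and Dlx6 among the GABAergic markers, and nothing is drawn from those entries.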
